A study of Mus musculus with 5 samples.

Results

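The genes described are those of the immunoglobulin kappa and lambda light chain loci of the mouse. They were taken as every row of the deposited count table whose NCBI gene maps to a symbol starting with Igkv, Igkj, Igkc, Iglv, Iglj or Iglc and whose counts sum to at least 10 over the 5 libraries. Of the 27179 genes in the table, 118 carry such a symbol and 102 reach 10 counts. The kappa locus gives 93 of them (87 V, 5 J and 1 C gene) and the lambda locus 9 (3 V, 3 J and 3 C genes). Of the 16 rows left out, 3 had no count in any library. Igkv4-54 and Igkv4-60, with 8 counts each, lay just below the limit, and Igkv4-81 with 13 lay just above it.

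An antibody light chain is made from a variable (V), a joining (J) and a constant (C) segment, and a B lineage cell joins a single V to a single J by recombination before the gene is read as a whole. The kappa locus lies on chromosome 6 and holds many V segments in front of a short row of J segments and the lone constant gene Igkc, while the small lambda locus on chromosome 16 has few segments. Plasma cells, which are common in the gut wall, secrete antibody and carry very large amounts of light chain transcript. Innate lymphoid cells and T cells are not known to make light chains.

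RNA-seq counts come from 3 libraries of group 3 innate lymphoid cells (ILC3), which make IL-22 at mucosal surfaces, and 2 libraries labelled CD4 T, in a series on IL-2 and regulatory T cells of the gut. Both groups are wild type C57BL/6 with no treatment named, with no age stated in the labels. ILC3 were sorted as CD45+, CD3- and CD127+ cells that express a fluorescent lineage reporter, where CD127 is the IL-7 receptor, and the other group by the gate CD45+CD3+CD4+. The libraries were made by low-input full-length cDNA amplification from cells of 3 mice, and the labels do not say which mouse gave which library, so a p-value here measures spread between libraries that may be technical. Depth ran from 15123715 to 25956023 counts per library.

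The ILC3 markers Il7r, Il22, Il23r, Ncr1 and Kit were each called higher in ILC3, and Il22 was 21493, 19468 and 19702 CPM there against 13.3 and 141 CPM in CD4 T. CPM is counts per 1000000 counts after scaling the libraries by TMM, a factor for differences in RNA composition. Of 7 T cell genes, Cd4, Cd3d and Trac were called lower in ILC3 and 4 were not called. Those 4 went both ways. The log2 difference, ILC3 over CD4 T, was -1.30 for Cd3e and -1.26 for Cd3g, but 1.20 for Trbc1 and 0.47 for Trbc2. The summed T cell level was 748 to 1453 CPM in ILC3 and 1237 and 3668 CPM in CD4 T. The libraries labelled CD4 T also held transcripts of plasmacytoid dendritic cells. Of 10 such markers 9 were called higher in CD4 T, at 5096 and 4274 CPM summed against 271 to 682 CPM in ILC3. Siglech, a receptor known from those cells, was 745 and 814 CPM in CD4 T. CD4 T is used below as the label of these libraries.

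The J segments are printed first because they carry the motif that marks a usable joining segment, a phenylalanine followed by glycine, any residue and glycine. Sequences are those of GENCODE M21 transcripts on GRCm38, written 5′ to 3′ on the coding strand, and the capitals mark the 12 bases from the phenylalanine codon.
Igkj1: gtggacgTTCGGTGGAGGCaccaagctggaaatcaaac
Igkj2: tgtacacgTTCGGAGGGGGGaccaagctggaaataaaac
Igkj3: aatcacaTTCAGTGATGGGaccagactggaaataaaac
Igkj4: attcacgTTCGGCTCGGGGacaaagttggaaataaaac
Igkj5: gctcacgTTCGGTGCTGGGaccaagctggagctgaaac
Iglj1: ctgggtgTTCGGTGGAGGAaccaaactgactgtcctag
Iglj2: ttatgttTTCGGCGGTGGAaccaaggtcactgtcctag
Iglj3: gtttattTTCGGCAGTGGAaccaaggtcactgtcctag
Igkj1 lies at chr6:70722562-70722599 and Igkj5 at chr6:70723886-70723923, both on the + strand, while Iglj1 (chr16:19063225-19063262), Iglj2 (chr16:19200198-19200235) and Iglj3 (chr16:19067041-19067078) are on the - strand. The motif, searched as a TTC codon, a codon that starts with GG, any codon and another that starts with GG, is held by 7 of these 8 segments and by 8 of all 10 light chain J segments of the annotation on the coding strand, and by 0 on the other strand. Igkj3 lacks it: with positions counted from 1 at the first capital, each of the other 4 kappa segments differs from Igkj3 by G4A. Further differences in the 12 bases, at position 8 in each segment and at others in some, fall where the motif allows any base. Igkj3 is long known as a joining segment that is not used in functional mouse light chains.

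The V segments printed next are those with the highest count in a library and those called different between the groups. Each line holds the last 90 bases of the segment, and the capitals mark the 9 bases that end in the conserved cysteine codon before the third hypervariable loop.
Igkv6-15: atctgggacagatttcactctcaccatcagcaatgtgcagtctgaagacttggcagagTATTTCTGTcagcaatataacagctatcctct
Igkv8-30: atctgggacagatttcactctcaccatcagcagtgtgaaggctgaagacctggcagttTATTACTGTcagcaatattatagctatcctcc
Igkv1-122: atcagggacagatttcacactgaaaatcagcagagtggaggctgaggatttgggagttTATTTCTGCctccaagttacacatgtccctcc
Igkv1-110: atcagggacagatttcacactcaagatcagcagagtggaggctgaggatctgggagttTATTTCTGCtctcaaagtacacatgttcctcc
Igkv6-32: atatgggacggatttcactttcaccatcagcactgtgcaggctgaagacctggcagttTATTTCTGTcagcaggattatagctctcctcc
Igkv5-39: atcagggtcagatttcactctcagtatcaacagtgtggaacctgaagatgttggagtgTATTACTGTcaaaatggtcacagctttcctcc
On GRCm38 these windows are chr6:70406469-70406558 (-), chr6:70117061-70117150 (-), chr6:68017399-68017488 (+), chr6:68271178-68271267 (+), chr6:70074024-70074113 (-) and chr6:69900424-69900513 (-), in the order of the lines. The motif TATTNCTGN occurs in the last 60 bases of 84 of 100 annotated kappa V genes on the coding strand and of 5 on the other. Kappa V genes resemble each other closely. The nearest relative of a gene was identical at a median of 94.7% of aligned bases, and 17 genes had a relative above 97%. Reads of such pairs may be split between copies by the counting, so the count of a single V gene is uncertain to that extent.

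Light chain transcripts were abundant in all 5 libraries. They took 5.59%, 27.6% and 22.6% of each ILC3 library (replicates 1 to 3) and 12.3% and 9.04% of the CD4 T libraries (replicates 1 and 2). The groups overlapped, since ILC3 replicate 1 lay below both CD4 T libraries and the other ILC3 libraries lay above both. In bulk RNA, fewer cells of a type and less RNA per cell cannot be told apart.

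Igkc, the kappa constant gene (NCBI gene 16071, chr6:70726435-70726754, + strand), was 29852, 176629 and 112576 CPM in ILC3 and 43803 and 35518 CPM in CD4 T. The lowest and the highest of the 5 levels were both in ILC3. The means were 106352 ± 73586 CPM (SD, n = 3) for ILC3 and 39660 ± 5859 CPM (SD, n = 2) for CD4 T, and their log2 difference of 1.42 with an SE of 0.720 did not pass the test (edgeR quasi-likelihood test, Benjamini-Hochberg adjusted p = 0.219). The whole kappa locus summed to 51683, 318377 and 201814 CPM in ILC3 and to 67322 and 64234 CPM in CD4 T. Its highest level over its lowest was 6.16 within ILC3 and 1.05 within CD4 T. The log2 ratio of the group means was 1.54, and 0.95 without ILC3 replicate 2.

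Lambda varied more between ILC3 libraries than kappa. The lambda locus summed to 660, 52316 and 73922 CPM in ILC3 and to 30660 and 9826 CPM in CD4 T, so its highest level over its lowest was 112 in ILC3 and 3.12 in CD4 T. ILC3 replicate 1 held the least lambda of all libraries and the other ILC3 libraries held the most. The log2 ratio of the group means was 1.06. It was 1.64 without ILC3 replicate 1, 0.39 without ILC3 replicate 3, 2.11 without CD4 T replicate 1 and 0.46 without CD4 T replicate 2.

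Lambda genes took 0.894%, 14.2% and 26.9% of the counts on light chain constant genes in ILC3, against 29.1% and 13.7% in CD4 T. The constant genes have nearly equal lengths, 317 to 320 bases in the annotation. The means were 14.01% ± 13.0 (SD, n = 3) and 21.4% ± 10.9 (SD, n = 2), and the groups overlapped. The mean without ILC3 replicate 1 was 20.6%, without ILC3 replicate 3 it was 7.56%, and CD4 T without replicate 1 is the 13.7% of the remaining library.

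Iglc1 is the constant gene of the cluster that pairs with Iglv1 and Iglj1. It was 96.2, 27709 and 40476 CPM in ILC3 and 15594 and 3494 CPM in CD4 T (log2 difference 1.25 with an SE of 1.74, edgeR adjusted p = 0.668). As with the lambda sum, ILC3 replicate 1 was the lowest library and the other ILC3 libraries were the highest, so the groups overlapped. Iglv1, the main lambda V gene of the mouse, was 352, 21892 and 31051 CPM in ILC3 and 11707 and 3198 CPM in CD4 T (log2 1.25, edgeR adjusted p = 0.597). Iglj1 was 6.46, 928 and 1187 CPM in ILC3 and 759 and 85.1 CPM in CD4 T (log2 0.74, edgeR adjusted p = 0.799). Iglc1, Iglv1 and Iglj1 had the same order of libraries. Iglj3 and Iglc3, which lie between Iglv1 and Iglj1 on the chromosome, had another order. With each library left out in turn the log2 difference ran from 0.54 (without ILC3 replicate 3) to 2.71 (without CD4 T replicate 1) for Iglc1, from 0.58 to 2.48 for Iglv1 with the same libraries left out, and from -0.09 (without CD4 T replicate 2) to 3.06 (without CD4 T replicate 1) for Iglj1.

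Iglc2 and Iglc3 are near copies, identical at 94.9% of aligned transcript bases. Iglc2 was 100.4, 797 and 659 CPM in ILC3 and 764 and 1089 CPM in CD4 T (log2 -0.84, edgeR adjusted p = 0.492). Iglc3 was 72.6, 770 and 350 CPM in ILC3 and 1595 and 1039 CPM in CD4 T, with both CD4 T libraries above all ILC3 libraries (log2 -1.73 with an SE of 0.827, edgeR adjusted p = 0.197). Neither passed the test. Iglj3, the joining segment in front of Iglc3, was 4.58, 25.6 and 20.1 CPM in ILC3 and 66.6 and 39.5 CPM in CD4 T, again without overlap (log2 -1.67, edgeR adjusted p = 0.142). Iglj2, the segment in front of Iglc2, was 11.2, 84.2 and 68.7 CPM in ILC3 and 71.9 and 33.6 CPM in CD4 T (log2 0.05, edgeR adjusted p = 0.973).

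**Figure D1:**
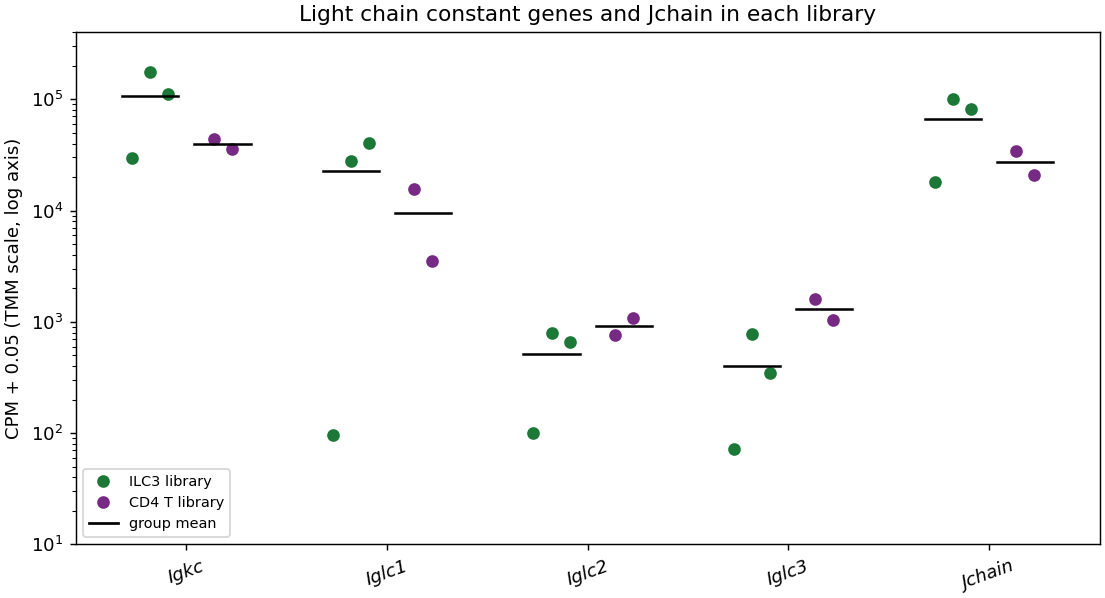
Level of the 4 light chain constant genes and of Jchain in each library, as CPM plus 0.05 on a log axis, with green points for ILC3, purple points for CD4 T and horizontal lines at the group means. Iglc1 spans 96.2 to 40476 CPM within ILC3, and the CD4 T levels of Iglc3 lie above those of ILC3.

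The make-up of lambda constant counts differed between libraries. Iglc1 held 94.6% and 97.6% of them in ILC3 replicates 2 and 3, 86.9% and 62.1% in CD4 T replicates 1 and 2, and 35.7% in ILC3 replicate 1. In ILC3 replicate 1, with 7461 lambda constant counts, Iglc2 held 37.3% and Iglc3 held 27.0%. The 95% Wilson intervals of these shares are at most 1.10 points wide on either side, and cover counting error only. Iglv1 held 95.6% of lambda V counts in that library, and 99.1% to 99.6% in ILC3 replicates 2 and 3 and CD4 T replicate 1.

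CD4 T replicate 2 stood apart in its lambda V genes. Iglv2 was 0.505, 16.8 and 24.4 CPM in ILC3 and 11.3 and 544 CPM in CD4 T (log2 -4.32 with an SE of 1.72, edgeR adjusted p = 0.135). CD4 T replicate 2 held 91.1% of the CPM summed over libraries, the other CD4 T library lay within the ILC3 range, and the log2 difference was 0.31 when CD4 T replicate 2 was left out. Iglv3 was 15.6, 93.8 and 86.6 CPM in ILC3 and 90.9 and 304 CPM in CD4 T (log2 -1.59, edgeR adjusted p = 0.214). Its log2 difference was -0.47 when CD4 T replicate 2 was left out. Iglv1 held 79.0% of lambda V counts in CD4 T replicate 2, Iglv2 13.4% and Iglv3 7.50%.

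Iglv1 and Iglv2 are the pair of lambda V genes most alike, identical at 96.7% of aligned bases. Their last 90 bases are printed to show how few positions separate them, with capitals at the bases that differ.
Iglv1: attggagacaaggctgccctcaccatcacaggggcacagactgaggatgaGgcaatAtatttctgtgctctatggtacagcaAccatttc
Iglv2: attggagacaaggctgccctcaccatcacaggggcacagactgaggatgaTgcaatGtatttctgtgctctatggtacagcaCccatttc
The windows are chr16:19085017-19085106 and chr16:19260401-19260490, both on the - strand of GRCm38, and 3 of 90 bases differ. In the 4 libraries other than CD4 T replicate 2, Iglv2 had 14 to 418 counts beside 9759 to 531215 of Iglv1.

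Kappa joining segments have nearly equal lengths, 38 or 39 bases, so that their counts can be set beside each other. Igkj1 was 88.9, 1447 and 2276 CPM in ILC3 and 499 and 191 CPM in CD4 T (log2 1.88, edgeR adjusted p = 0.313). Igkj2 was 455, 2523 and 2339 CPM in ILC3 and 618 and 1001 CPM in CD4 T (log2 1.13, edgeR adjusted p = 0.322). Both overlapped, with ILC3 replicate 1 below the CD4 T libraries. Igkj5, the segment nearest to Igkc, was 642, 3120 and 1121 CPM in ILC3 and 438 and 829 CPM in CD4 T (log2 1.36, edgeR adjusted p = 0.233).

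Igkj4 was the kappa joining segment whose groups did not overlap among those tested. It was 561, 704 and 1219 CPM in ILC3 and 261 and 78.7 CPM in CD4 T. Its log2 difference was 2.29 (SE 0.629, edgeR adjusted p = 0.0569), which did not pass the test. Without CD4 T replicate 1 it was called (log2 3.40, edgeR adjusted p = 0.0408), and its adjusted p lay between 0.000576 with the DESeq2 Wald test and 0.165 with a replicate block. Fits that leave out a CD4 T library, here and elsewhere, rest on 1 CD4 T library, which is assumed to vary as the ILC3 libraries do.

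Igkj3, the segment without the motif, had 8, 8 and 17 counts in ILC3, against 0 and 5 in CD4 T, and was too low to be tested. Its share of kappa joining counts was 0.0165% at most. The 0 of CD4 T replicate 1 allows up to 3 counts, or 0.119 CPM. Igkj2 took 26.03%, 32.4% and 33.6% of kappa joining counts in ILC3, against 34.1% and 47.7% in CD4 T, so that both CD4 T libraries lay above the ILC3 libraries. Igkj1, Igkj4 and Igkj5 overlapped: Igkj1 took 5.08% to 32.7% in ILC3, against 27.5% and 9.09% in CD4 T, Igkj4 9.03% to 32.1% and 14.4% and 3.75%, and Igkj5 16.1% to 40.0% and 24.1% and 39.5%. ILC3 replicate 1 had the lowest share of Igkj1 and the highest share of Igkj4.

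**Figure D2:**
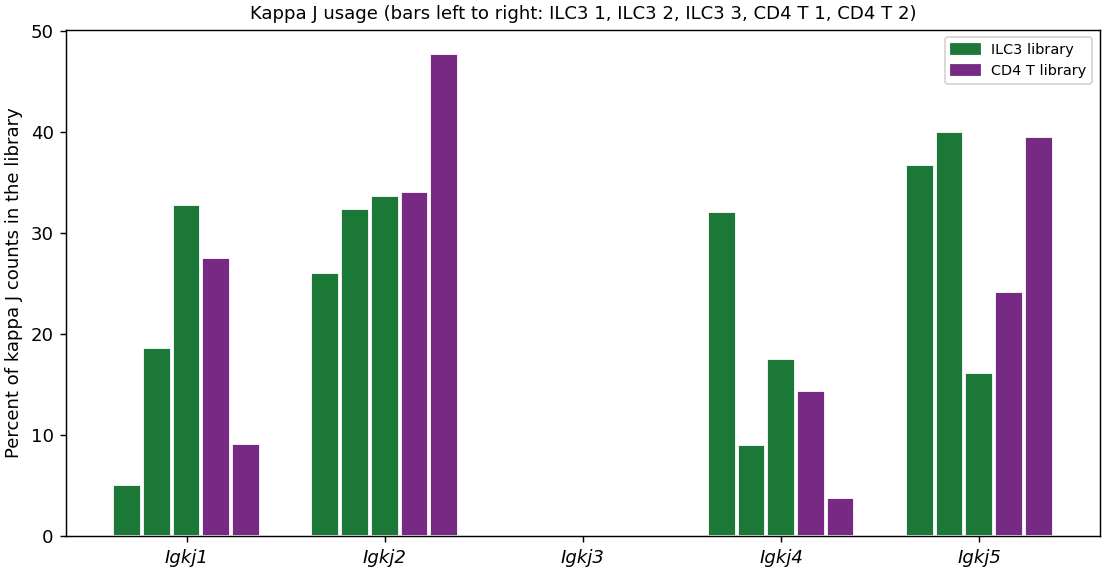
Share of each kappa joining segment in the kappa joining counts of a library, in percent, with green bars for ILC3 and purple bars for CD4 T. Igkj3 is at or under 0.0165% in every library, and the CD4 T shares of Igkj2 lie above those of ILC3.

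The 87 kappa V genes held 2.15%, 9.96% and 6.73% of all counts in ILC3, against 2.72% and 3.25% in CD4 T. For each count on Igkc there were 0.673, 0.758 and 0.731 counts on kappa V genes in ILC3, against 0.496 and 0.749 in CD4 T, in counts and not per length. Of the 87 genes, 62 had a count in every library, 55 reached 1000 counts in at least 1 library and 18 of those in 1 library only. Igkv1-110, Igkv1-117, Igkv6-15, Igkv8-27, Igkv12-44 and Igkv12-46 reached 1000 counts in all 5 libraries.

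Few genes held most kappa V counts in each library. It took 4, 1 and 5 genes to reach 50% of them in ILC3 replicates 1 to 3 and 3 genes in each CD4 T library, and 10, 11 and 17 genes in ILC3, against 16 and 12 in CD4 T to reach 90%. The effective number of V genes, the number of equally used genes that would give the same Shannon diversity, was 11.4, 7.44 and 18.1 in ILC3, against 13.7 and 12.9 in CD4 T. The lowest and the highest value were both in ILC3, and the means were 12.3 ± 5.39 (SD, n = 3) and 13.3 ± 0.575 (SD, n = 2).

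Igkv6-15 (NCBI gene 108022) had the highest count and the highest count per length among kappa V genes in 4 of 5 libraries. It was 4892, 71405 and 4556 CPM in ILC3 and 6184 and 5556 CPM in CD4 T. ILC3 replicate 2 was 11.6 times the next library, and the other 4 libraries lay within 4556 to 6184 CPM. It took 24.4% and 53.3% of kappa V counts in ILC3 replicates 1 and 2 and 28.5% and 20.9% in CD4 T, and 5.31% of all counts in ILC3 replicate 2. The log2 difference was 2.20 (SE 1.29, edgeR adjusted p = 0.281), and without ILC3 replicate 2 it was -0.31.

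Igkv8-30 (NCBI gene 384419) was the top kappa V gene of ILC3 replicate 3, with 16% of kappa V counts. It was 17.0, 21.8 and 13169 CPM in ILC3 and 3182 and 3013 CPM in CD4 T. The CD4 T libraries were alike and lay between the low and the high ILC3 libraries (log2 0.51 with an SE of 2.301, edgeR adjusted p = 0.905). Without ILC3 replicate 3 Igkv8-30 was called lower in ILC3 (log2 -7.32, edgeR adjusted p = 0.00561). Igkv8-27 was 46.3, 3604 and 9340 CPM in ILC3 and 1904 and 4840 CPM in CD4 T (log2 0.36, edgeR adjusted p = 0.897), also lowest in ILC3 replicate 1, and its log2 difference was -0.89 without ILC3 replicate 3 and -0.16 without CD4 T replicate 1.

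Genes of the Igkv12 family were among the highest in ILC3 replicate 1 too. Igkv12-44 was 2424, 9148 and 5185 CPM in ILC3 and 2056 and 169 CPM in CD4 T, without overlap (log2 2.33 with an SE of 1.07, edgeR adjusted p = 0.182). Igkv12-46 was 1984, 5270 and 555 CPM in ILC3 and 45.7 and 2391 CPM in CD4 T (log2 1.10, edgeR adjusted p = 0.655). The log2 difference of Igkv12-44 was 5.05 without CD4 T replicate 1 and 1.45 without CD4 T replicate 2. That of Igkv12-46 was 0.06 without ILC3 replicate 2, 0.13 without CD4 T replicate 1 and 5.85 without CD4 T replicate 2. The CD4 T library that was high in Igkv12-44 was low in Igkv12-46 and the reverse.

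The comparison of ILC3 with CD4 T was fitted on all 12747 genes that passed the filter on low counts. Of the 102 light chain genes, 84 passed it (75 kappa and 9 lambda). At an adjusted p under 0.05, 2 of the 84 (2.38%) were higher in ILC3, where 6.46% of all genes tested were, and 2 (2.38%) were lower, where 7.21% of all genes were. The other 80 were not called, and 19 of the 84 had an unadjusted p under 0.05 (11 higher and 8 lower), which is 22.6% against 33.4% of all genes tested. Counts called higher and lower came to 5 and 2 when ILC3 replicate 1 was left out, 1 and 4 without ILC3 replicate 3, and 8 and 5 with the DESeq2 Wald test. The share of all genes called in those fits is not given here, so these changes may not be particular to light chain genes.

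Igkv1-122 (NCBI gene 434024) was higher in ILC3. It was 157, 26.4 and 256 CPM in ILC3 and 0.991 and 0.325 CPM in CD4 T, from 25 and 6 counts there. Each ILC3 library lay far above both CD4 T libraries, and the log2 difference was 7.75 (SE 1.26, edgeR adjusted p = 0.0140). The call was lost without CD4 T replicate 1 (log2 8.79, edgeR adjusted p = 0.0718) and in limma-voom (adjusted p = 0.152).

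Igkv1-110 (NCBI gene 381777) was higher in ILC3 at the edge of the threshold. It was 1949, 8733 and 5181 CPM in ILC3 and 755 and 1010 CPM in CD4 T. Its log2 difference of 2.58 had an SE of 0.664 (edgeR adjusted p = 0.0491). The groups did not overlap. It did not pass after leaving out ILC3 replicate 2 (edgeR adjusted p = 0.106) or 3 (0.0959), without CD4 T replicate 1 (0.206) or 2 (0.0987), with library size alone (0.0521) and with a replicate block (0.182). Igkv1-110 is identical to Igkv1-117 at 97.5% and to Igkv1-122 at 94.0% of aligned bases. Igkv1-117, named after its values were seen, was 401, 3733 and 1492 CPM in ILC3 and 349 and 137 CPM in CD4 T (log2 2.95, edgeR adjusted p = 0.0869).

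Igkv6-32 (NCBI gene 434039) was lower in ILC3. It was 5.52, 4.93 and 1.70 CPM in ILC3 and 261 and 1391 CPM in CD4 T, without overlap (log2 -7.67 with an SE of 0.923, edgeR adjusted p = 0.00626). Igkv5-39 (NCBI gene 620017) was 0.144, 1.73 and 0.409 CPM in ILC3, from 4, 27 and 7 counts, and 87.7 and 202 CPM in CD4 T. Its log2 difference was -7.63 (SE 1.02, edgeR adjusted p = 0.00845), also without overlap. Both genes were called lower under every alternative and without each library in turn. The log2 difference of Igkv6-32 was -5.99 without CD4 T replicate 2, and that of Igkv5-39 was -9.08 without ILC3 replicate 2. The nearest relatives, at 83.9% identity for Igkv6-32 and 90.5% for Igkv5-39, are less alike than is the median for the locus.

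**Figure D3:**
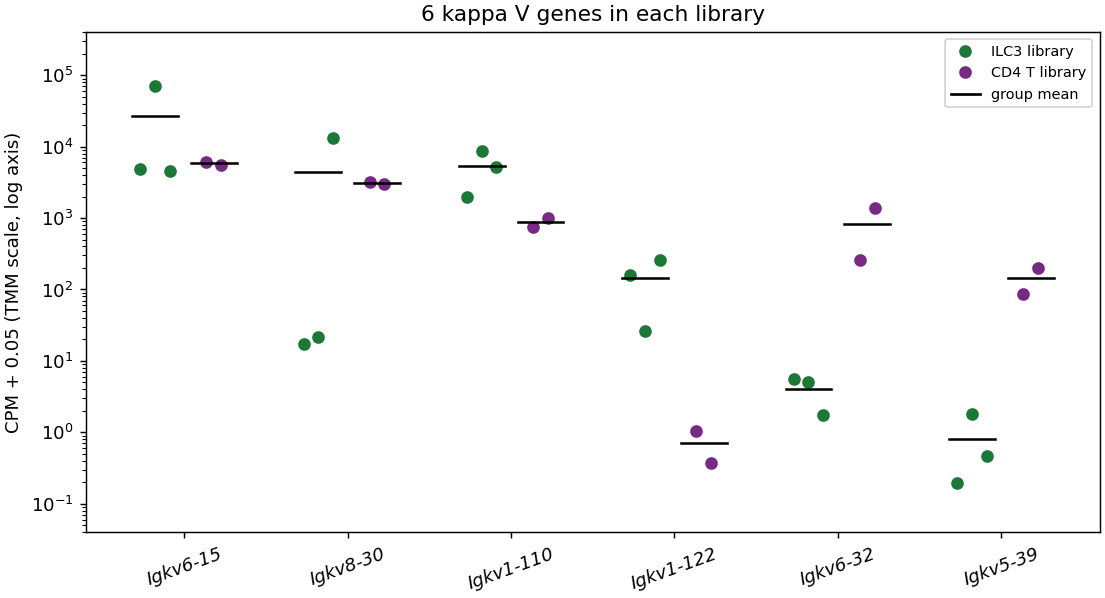
Level of 6 kappa V genes in each library, as CPM plus 0.05 on a log axis, with horizontal lines at the group means. Igkv6-15 and Igkv8-30 each have 1 ILC3 library far above the other ILC3 libraries, while Igkv1-122, Igkv6-32 and Igkv5-39 have groups that lie far apart.

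Over the 84 tested genes the groups did not overlap in 15. ILC3 was the higher group in 11 of them (13.1%, against 25.5% of all genes tested) and the lower in 4 (4.76%, against 29.6% of all genes). The other 69 overlapped. The median log2 difference of the 84 was 1.73 beside -0.10 for all genes tested. That median of light chain genes was 0.17 in limma-voom, -0.16 with a replicate block, 1.08 without ILC3 replicate 2, 0.58 without ILC3 replicate 3 and 2.61 without CD4 T replicate 1. Scaling by library size alone gave 1.06, and the median of all genes was then -0.60.

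Light chain genes varied widely among libraries of the same label. Within ILC3 the highest level of a gene over its lowest, with 0.1 CPM added to each, had a median of 120 over the 84 genes and 1.89 over all genes tested. It was above 10 in 59 genes (70.2%), against 13.0% of all genes tested. Within CD4 T, which has 2 libraries, the medians were 4.15 and 1.74, and 32 genes (38.1%) were above 10, against 6.79% of all genes.

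Kappa V genes were often concentrated in 1 library. A single library held over 90% of the CPM summed over libraries for 28 of 87 genes and over 50% for 70. The following examples were chosen after their values were seen. Igkv8-26 had 10314 counts in ILC3 replicate 2, 0 in the other ILC3 libraries and 2 and 3 in CD4 T. Igkv4-53 had 11528 counts in ILC3 replicate 1 and 2 to 11 in each other library. Igkv4-86 had 35682 counts in ILC3 replicate 3 and 4 to 248 elsewhere. For Igkv3-4 the high library was CD4 T replicate 2, with 6961 counts against 9 to 52. Igkv6-23 was high in part of ILC3, with 88506 and 82104 counts in ILC3 replicates 2 and 3, 364 in ILC3 replicate 1 and 189 and 282 in CD4 T. Igkv4-91 was high in part of both groups, with 117888 in ILC3 replicate 3 and 38051 in CD4 T replicate 2 beside 27 to 120 in the rest. ILC3 replicate 2 was the highest library for 34 kappa V genes, ILC3 replicate 3 for 26, CD4 T replicate 2 for 12, ILC3 replicate 1 for 8 and CD4 T replicate 1 for 7.

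The shared usage of a pair of libraries, the sum over kappa V genes of the smaller of both shares, was 50.3% for ILC3 replicates 1 and 2, 22.8% for 1 and 3, 35.3% for 2 and 3, and 55.9% for the CD4 T pair. Between the groups it ran from 36.5% to 55.0%. The values of the ILC3 pairs and of the pairs between groups overlapped, and no test was made.

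By family, the kappa V genes fall into 19 groups of similar sequence. Igkv6, the largest by share, took 41.3%, 60.4% and 14.3% of kappa V counts in ILC3, against 35.5% and 29.0% in CD4 T. Igkv8 took 0.394%, 5.56% and 27.5% in ILC3, against 29.1% and 30.0% in CD4 T. Igkv12 took 22.0%, 10.8% and 8.61% in ILC3, against 11.4% and 13.9% in CD4 T. In these shares Igkv8 was lower in all ILC3 libraries, while Igkv6 and Igkv12 overlapped. By summed level the picture differed, with 4 of 19 families higher in every ILC3 library (Igkv1, Igkv5, Igkv6 and Igkv12) and 0 lower. Of all single genes tested, 25.5% were higher and 29.6% lower without overlap. Family sums and family shares have no such reference of their own. Igkv8 summed to 79.0, 7452 and 22587 CPM in ILC3, against 6317 and 7984 CPM in CD4 T, and so overlapped.

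Igkv1 was the family whose share was higher in every ILC3 library, at 12.5%, 9.33% and 11.1% against 5.18% and 4.69% in CD4 T. Its means were 11.0% ± 1.59 (SD, n = 3) and 4.94% ± 0.347 (SD, n = 2). It has 6 genes among the 87, with the called Igkv1-110 and Igkv1-122 among them. Beside Igkv8, the families Igkv15 and Igkv11 were lower without overlap, with shares of at most 0.00264% in any library. The other 15 families overlapped, among them Igkv4, the family with the most genes (22), at 9.86%, 3.12% and 13.5% in ILC3, against 1.78% and 8.38% in CD4 T. Igkv19, with the single gene Igkv19-93, took 0.153%, 0.201% and 11.2% in ILC3, against 2.61% and 4.77% in CD4 T.

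**Figure D4:**
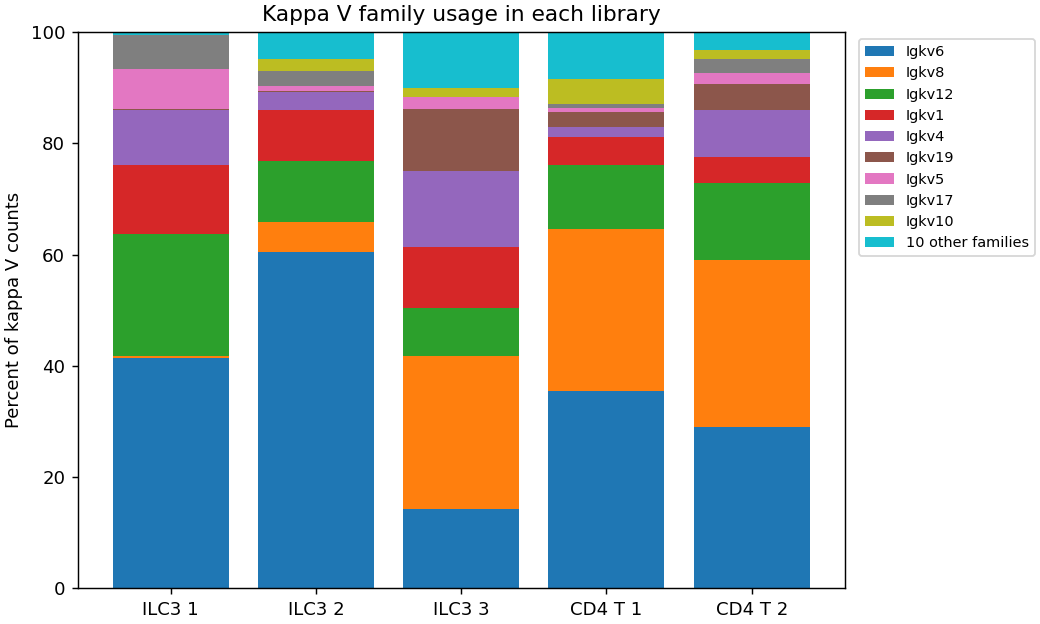
Share of each kappa V family in the kappa V counts of a library, in percent, as stacked bars for the 3 ILC3 and 2 CD4 T libraries, with the 10 smallest families joined. Igkv8 takes 0.394% in ILC3 replicate 1 and 27.5% to 30.0% in ILC3 replicate 3 and both CD4 T libraries.

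Along chromosome 6 the kappa V genes lie 18.7 to 3167 kb from Igkj1. The 38 genes within 1000 kb held 71.0%, 78.7% and 54.0% of kappa V counts in ILC3, against 78.2% and 77.2% in CD4 T. ILC3 replicate 3 had the lowest share. Of 86 genes with an annotated strand, 54 lie in the opposite orientation to the J segments, which recombination joins by inversion, and 32 in the same orientation. The opposite group held 77.2%, 85.3% and 79.0% of kappa V counts in ILC3, against 85.1% and 88.0% in CD4 T.

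**Figure D5:**
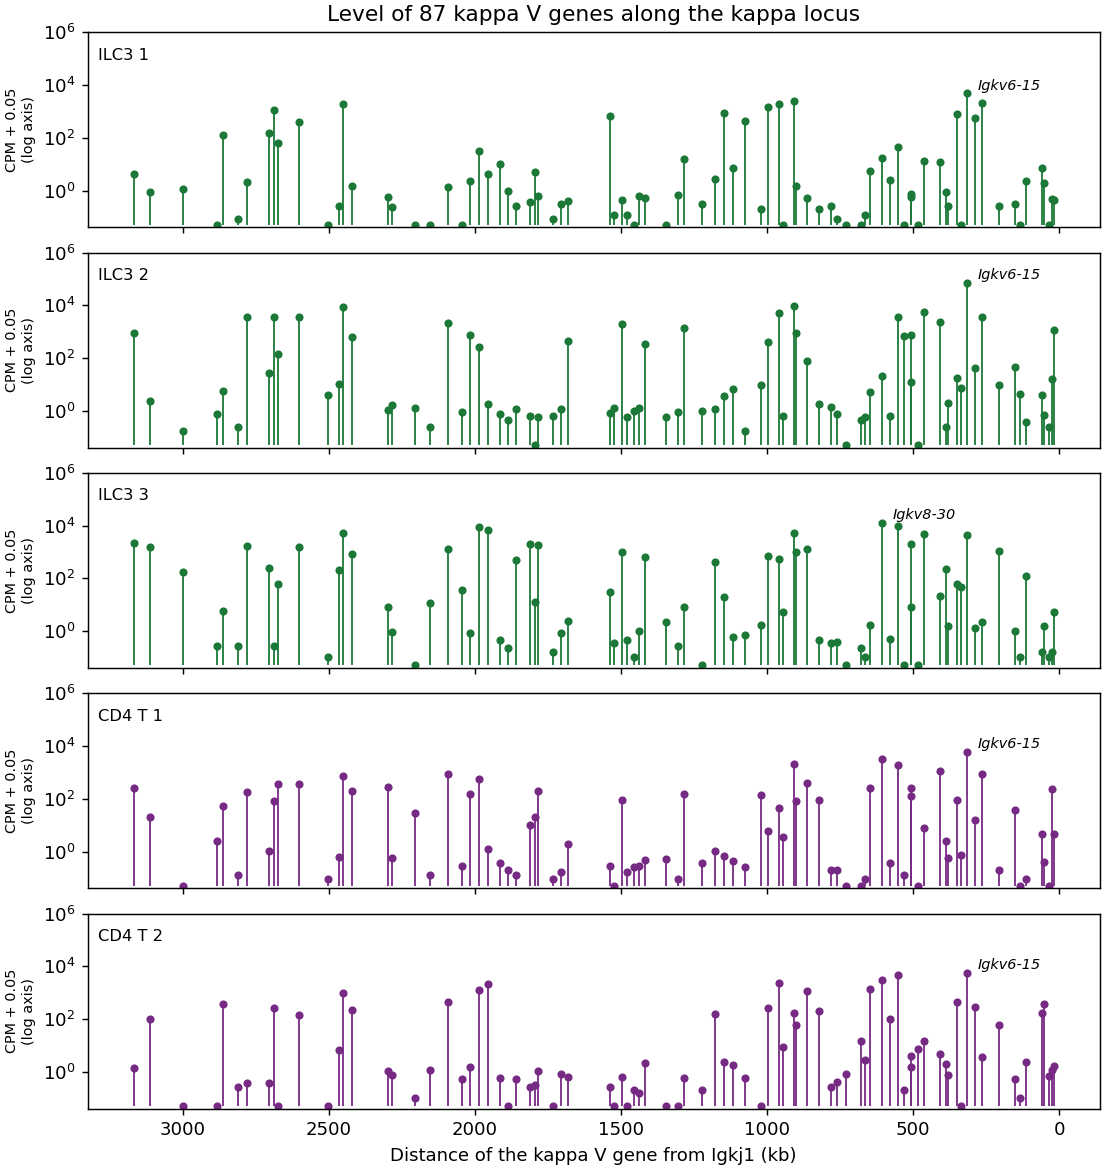
Level of the 87 kappa V genes, as CPM plus 0.05 on a log axis, against their distance from Igkj1 in kb, with a panel for each library and the gene with the highest level named. High genes lie in several parts of the locus in each panel, and their pattern differs between libraries of the same label. Both ends are low in ILC3 replicate 1, where the nearest gene, Igkv3-1, is 0.397 CPM and the farthest, Igkv2-137, is 4.08 CPM.

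Plasma cell and B cell genes were read beside the light chains. Of 18 plasma cell genes, Sec11c, a subunit of the signal peptidase, was called higher in ILC3, Prdm1, Irf4 and Txndc5 were called lower and 14 were not called, with a median log2 difference of -0.45. Their summed level was 23181, 106864 and 88678 CPM in ILC3 and 39399 and 25200 CPM in CD4 T, and none was at 0 in all ILC3 libraries. Most of that sum is Jchain, which encodes the chain that joins IgA and IgM into polymers, at 17875, 100425 and 82251 CPM in ILC3 and 34269 and 20826 CPM in CD4 T (log2 1.28, edgeR adjusted p = 0.271). As for Igkc, ILC3 replicates 2 and 3 had the highest levels of Jchain and ILC3 replicate 1 the lowest. Sdc1, a surface marker of plasma cells, was 12.7, 4.87 and 1.17 CPM in ILC3 and 1.15 and 2.44 CPM in CD4 T. From 352, 76 and 20 counts in ILC3, it was highest in the library with the least light chain. Tnfrsf17, of the same list, was 12.6, 50.9 and 61.6 CPM in ILC3 and 36.8 and 44.6 CPM in CD4 T. It was lowest in that ILC3 library, so the list held both orders. Over all genes tested, 6.46% were called higher and 7.21% lower, to set beside this list and those below. The CD4 T libraries also held plasmacytoid dendritic cell markers, and which cells gave Prdm1, Irf4 and Txndc5 was not tested. The part of plasma cell RNA in the light chain levels was not tested either.

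Of 16 B cell genes, 13 were tested, Blk was called higher in ILC3, Bank1, Fcrla, Spib and Blnk were called lower, and 8 were not called (median log2 difference -0.21). The summed level was 283 to 423 CPM in ILC3 and 744 and 561 CPM in CD4 T. Pax5, the factor that defines B cells before the plasma cell stage, had no count in any library. The genes called lower are in part also expressed by plasmacytoid dendritic cells, whose markers were high in the same libraries, and the part of either cell type was not tested.

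Of 7 genes listed for B cell precursors, Rag2 and Vpreb2 had no count in any library, Rag1, Vpreb1 and Dntt had none in ILC3, and Igll1 had a count in ILC3 replicate 2 only. Rag1, a subunit of the recombinase, was 0 in ILC3 and 0.0396 and 0.108 CPM in CD4 T. Dntt, which adds bases at the joins, was 0 in ILC3 and 64.8 and 40.0 CPM in CD4 T (edgeR adjusted p = 0.00351), and is the list's called gene. Plasmacytoid dendritic cell markers were high in the same libraries, and which cells gave Dntt was not tested. Vpreb3 was 16.2, 66.4 and 61.1 CPM in ILC3 and 71.3 and 25.7 CPM in CD4 T (edgeR adjusted p = 0.988).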

How the data were processed

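The authors deposited raw counts per gene. The build mm10 and the tools STAR 2.3.0 and CASAVA 1.8.2 are named per the submitters' processing notes, with no role given. What counted the reads, on which annotation and with which strand setting is not given in the sources used here. Reads of antisense neighbours can therefore not be told apart. Gene identifiers were named from RefSeq (GRCm38 patch release; 25275 of 27179 matched) and 18 more from GENCODE M21, which also gave the sequences of 101 of 102 members; mm10 is the UCSC name of GRCm38.

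The fit used edgeR 4.0.16 under R 4.3.3 (filterByExpr by group, TMM, quasi-likelihood F test, no covariate, 3 residual degrees of freedom), with Benjamini-Hochberg adjustment over 12747 genes and a call at an adjusted p under 0.05. Log2 differences are ILC3 over CD4 T, and the SE of each is its absolute value divided by the square root of the F statistic. The fit was tested on simulated data with the same spread set for every gene. That test does not cover genes that are high in a single library. Alternatives used DESeq2 1.42.0 and limma 3.58.1, other scalings and filters, a replicate block and each library left out. Identity was computed with Biopython 1.88. Sums, shares and diversity had no test, as 3 against 2 libraries cannot reach 0.05 in an exact permutation test.

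No pair of libraries agreed within sampling noise (chi-square per degree of freedom at least 234). Named genes were all C, J and lambda V members, the 5 kappa V genes highest in each group, the highest in each library and the called members. Members, gene lists and rules were chosen with earlier results of these data known. Some genes of the marker lists are not reported here by name.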

Additional observations from a re-analysis of the deposited data

How the results depend on the processing

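The count of light chain genes called higher in ILC3 was 2 as reported. It was 1 with library size alone, 18 of 102 with no filter on low counts and 8 with the DESeq2 Wald test. It ran from 1 to 5 with each ILC3 library left out in turn. The count called lower was 2 as reported. It was 4 with library size alone, 11 with no filter, 5 with the DESeq2 Wald test and 5 with the replicate block. With each ILC3 library left out it ran from 2 to 4. The share of all genes called in each of these settings is not given here, so such changes may not be particular to light chain genes. Correlations of deviations between same-numbered libraries were -0.0235 and -0.0338, so no pairing by sample number was seen. They cannot exclude pairing, because with 2 CD4 T libraries the deviations of replicate 2 mirror those of replicate 1. The block is given as a check only. It called 2 genes higher, with Igkv1-122 (edgeR adjusted p = 0.0111) among them but not Igkv1-110 (edgeR adjusted p = 0.182). Directions changed in genes that were not called in the reported fit. With limma-voom and with the replicate block the log2 differences were -0.75 and -2.17 for Iglc1, -0.64 and -1.70 for Iglj1, -0.07 and -1.14 for Iglv1, -0.48 and -0.67 for Iglj2, -4.29 and -7.33 for Igkv8-30, and -1.49 and -2.89 for Igkv8-27. Of these Igkv8-30 was called lower with the block (edgeR adjusted p = 0.0212), as was Iglv2 (log2 -4.76, adjusted p = 0.0160). With library size alone they were -0.59 for Iglj2, -0.09 for Igkv8-30 and -0.27 for Igkv8-27. With each library left out they ran from -0.09 to 3.06 for Iglj1, -0.40 to 0.71 for Iglj2, -5.29 to 0.31 for Iglv2, -0.31 to 2.70 for Igkv6-15, -7.32 to 1.10 for Igkv8-30 and -0.89 to 1.20 for Igkv8-27; Igkv8-30 was called lower without ILC3 replicate 3 (edgeR adjusted p = 0.00561). The cause was not tested. The log2 ratios of the locus sums kept their sign under every scaling and library left out (0.90 to 1.98 for kappa, 0.39 to 2.11 for lambda). These are ratios of arithmetic group means, in which high libraries weigh most. Limma-voom and the replicate block, under which Iglc1, Iglv1 and Iglj1 changed direction, were not run on the sums. Depth is not the limit for the abundant members, but it is for those with few counts: 21 kappa V genes have under 100 counts in all, and a count of 0 allows 0.108 to 0.192 CPM. Copies above 97% identity may share reads.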
